A study of Mus musculus with 9 samples.

Results

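The 138 genes described here were near their untreated level after 1 h of antigen receptor stimulation and were lower after 2 h, on the arrays labelled replicates 1 and 3. They are called late-falling genes. They were chosen from the measured values: the level is log2 of the deposited intensity plus 50, each gene is represented by its probe with the highest mean, and levels of replicates 1 and 3 were averaged. A gene was taken when its 1 h mean lay between -0.3 and 0.3 of its untreated mean, its 2 h mean was at least 0.9 below its 1 h mean, and both 2 h values lay below both 1 h values. The choice ran over 19057 named genes with a probe, of which 11087 were above noise, and all 138 chosen genes were above noise. The 3 replicate 2 arrays took no part in the choice.

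The study measured transcripts in primary B lymphocytes purified from the spleens of C57BL/6 mice aged 8 weeks, with Illumina bead arrays. There were 3 groups of 3 arrays: cells left untreated, and cells whose antigen receptor was crosslinked for 1 h or for 2 h with goat F(ab')2 antibody to mouse IgM at 2.5 µg/ml. IL-4 at 5 ng/ml and CD40L at 200 ng/ml also appear in the treatment protocol, without a label that ties them to particular arrays. The series description gives a treatment of 3 h, whereas the sample labels give 1 h and 2 h, and the sample labels were followed. The labels do not tell whether arrays of 1 group had separate mice or cultures behind them, so a p-value here reflects the spread between the samples alone, and that spread may be technical.

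The B cell antigen receptor passes its signal to the kinases Lyn, Syk and Btk. Btk and the adaptor proteins bring phospholipase C gamma to the membrane, where it makes diacylglycerol and releases calcium, and these activate the MAP kinases, NFAT and NF-kappaB. Immediate-early transcripts appear first, and the level of any transcript at a later time reflects both its synthesis and its decay. A resting follicular B cell keeps many components of this pathway, together with its lineage transcription factors, ready before it meets antigen.

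For most named genes the replicate 2 arrays did not lie nearest to the arrays that share their label: 2 h replicate 2 was nearer to the mean of untreated replicates 1 and 3 than to that of 2 h replicates 1 and 3 for 73.1% of the 11087 genes. Untreated replicate 2 was nearer to the 2 h mean for 61.5% of them, and 1 h replicate 2 was nearer to the 2 h mean than to the 1 h mean for 57.2%. The cause was not tested, and all values below are given by label, with and without these 3 arrays. The 6 B cell markers above noise had a summed intensity that ran from 26897 to 33406, most of it from Cd74. Cd79b, the signalling partner of IgM, had intensities of 8660.1, 3791 and 9360.0 without treatment, 7249.9, 2449.7 and 6131 after 1 h and 4943, 8159.7 and 3995 after 2 h (replicates 1, 2 and 3). Cd22, Ms4a1 and the dim Pax5 were likewise lowest on replicate 2 in the untreated and 1 h groups and highest on it at 2 h. Cd74 and Ebf1 were not: replicate 2 was their highest untreated array, at 24650 and 221. Their 2 h values were 22684, 22529 and 21953 for Cd74 and 180, 182 and 212 for Ebf1. T cell markers summed to 25.6 to 104, with Cd3g, Cd4 and Cd8a not above noise. Erythroid markers summed to 2385 on untreated replicate 3, 2673 on 1 h replicate 3 and 2627 on 2 h replicate 1, against 75.7 to 334 on the other 6 arrays, and neutrophil markers were also highest on those 3 arrays. The 2 h replicates 1 and 3 differed in these markers. The median centred level of the late-falling genes on these 2 h arrays was -0.62 and -0.69, low on both by the rule. A link between the markers and these levels was not tested.

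On the 6 arrays that chose them, the late-falling genes had 2 h levels well below their 1 h levels, as the rule required. On the log2 scale the median difference, 2 h minus 1 h, was -1.03 with a range from -2.37 to -0.90, which corresponds to a 2 h level at 0.489 of the 1 h level. Such a difference was found for 270 of the 11087 genes above noise (2.44%), and of these 138 were flat at 1 h, 96 were already below -0.3 at 1 h and 36 were above 0.3. These values restate the rule and carry no test. The genes nearest to the threshold were Hjurp (-0.903) and Gtpbp2 (-0.901) inside it and Tk1 and Smchd1 (both -0.898) outside it. At the lower edge of the flat window, Crtc3 (-0.298) and Irf2 (-0.299) were inside, and Gga2 and Dnajc7 (-0.302) were just outside. In RNA from a whole population, fewer cells that carry a transcript and less of it per cell cannot be told apart.

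The replicate 2 arrays did not show the same order. There the difference of 2 h minus 1 h had a median of 1.09 over the 138 genes, with quartiles of 0.62 and 1.63 and a range from -0.40 to 3.63, while the median over all named genes above noise was 0.01. It was above 0 for 135 of 138 genes (51.3% of all genes), at or above 0.9 for 86 (7.32% of all genes) and at or below -0.9 for 0 (7.93% of all genes). The difference of 1 h minus untreated had a median of -0.28, from -2.11 to 0.96, and lay at or below -0.9 for 22 genes (1.96% of all genes) and at or above 0.9 for 1, Cep78 (1.37% of all genes). The difference of 2 h minus untreated had a median of 0.86, with 137 genes above 0, 61 at or above 0.9 (3.99% of all genes) and 0 at or below -0.9 (5.24% of all genes). With 1 array in each group there is no test for these differences.

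Array by array, the 138 genes took a high or a low level that cut across the labels. With each gene centred on its 9-array mean, the median level was 0.57, -0.34 and 0.41 on untreated replicates 1, 2 and 3. After 1 h it was 0.38, -0.59 and 0.46, and after 2 h it was -0.62, 0.50 and -0.69. The 5 arrays with a high median are thus untreated and 1 h replicates 1 and 3 and 2 h replicate 2, and the median intensity on them was 412 to 471 against 159 to 213 on the other 4. On 2 h replicate 2 all 138 genes were above both other 2 h arrays (44.0% of all genes). On untreated replicate 2, 135 were below both other untreated arrays (44.6% of all genes), the exceptions being Whrn, Grm6 and Camta2. On 1 h replicate 2, 129 were below both other 1 h arrays (41.6% of all genes). That array also held the widest spread of the 138 genes, with quartiles of -0.97 and -0.24 around its median. The rule chose genes with low 2 h and higher 1 h values on replicates 1 and 3. Counts of replicate 2 against those arrays are thus partly set by the choice, and the shares over all genes are not a like baseline.

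**Figure D1:**
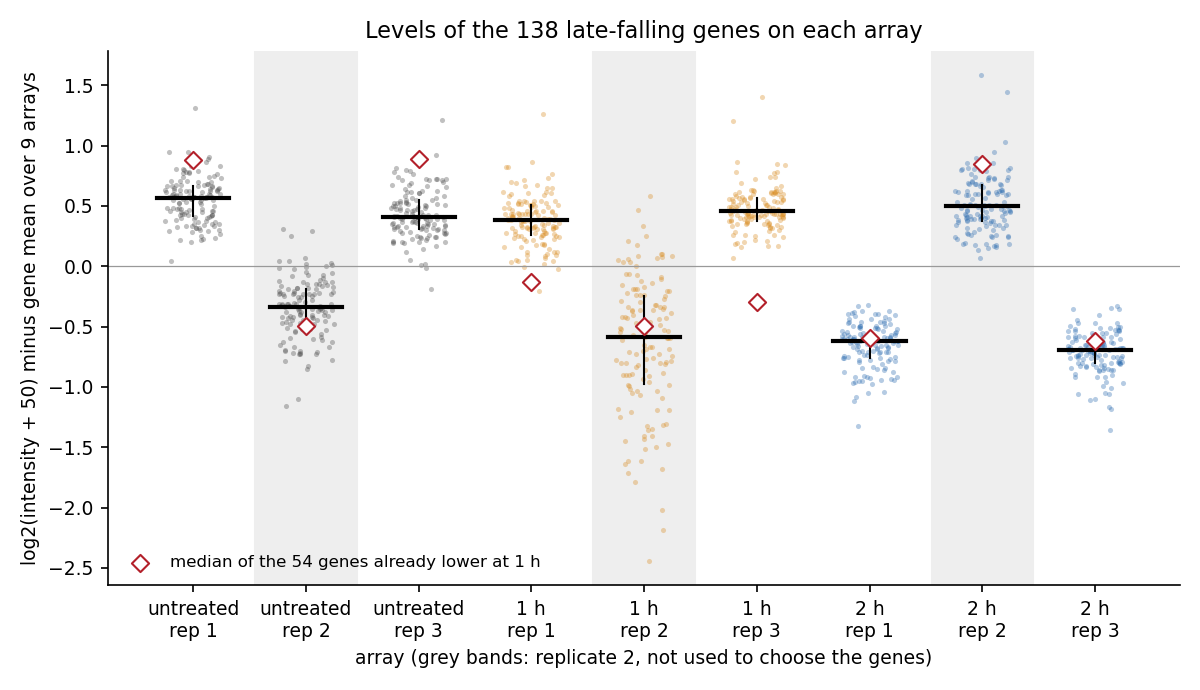
Level of the 138 late-falling genes on each of the 9 arrays, as log2 of intensity plus 50 with each gene's mean over the arrays subtracted; dots are genes, bars medians, vertical lines quartiles, and red diamonds the median of 54 genes that were already lower at 1 h. Medians of -0.62 and -0.69 on 2 h replicates 1 and 3 stand against 0.50 on 2 h replicate 2, which lies with the untreated and 1 h arrays of replicates 1 and 3.

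With all 9 arrays and the labels as given, no gene was called. The fit across all genes (limma, 14640 features, Benjamini-Hochberg adjustment) called 0 features between any pair of groups at an adjusted p under 0.05 (0%). The smallest adjusted p from limma was 0.393 for 2 h against 1 h, with 1001 features at an unadjusted p under 0.05, and there were 727 such features for 2 h against untreated and 190 for 1 h against untreated. In that fit the 138 genes had a median difference of -0.37 for 2 h minus 1 h, with 132 of them below 0 and a median standard error of 0.44. For 2 h minus untreated the median was -0.50 and all 138 were below 0, and for 1 h minus untreated it was -0.12 with 103 below 0. The fit includes the 6 arrays that chose the genes. These medians and counts are therefore partly set by the rule and carry no test. Single arrays moved these medians: for 2 h minus 1 h the median was -0.68 without 1 h replicate 2 and -0.76 without 2 h replicate 2, and between -0.20 and -0.14 without 1 h replicate 1, 1 h replicate 3, 2 h replicate 1 or 2 h replicate 3. Leaving out untreated replicate 2 gave a 2 h minus untreated median of -0.75 and leaving out 2 h replicate 2 gave -0.87, whereas it was -0.33 without untreated replicate 1, -0.30 without 2 h replicate 1 and -0.28 without 2 h replicate 3. The 1 h minus untreated median changed sign, to 0.21 without 1 h replicate 2 and 0.04 without untreated replicate 1. It became -0.41 when untreated replicate 2 was left out, -0.33 without 1 h replicate 3, -0.27 without 1 h replicate 1 and -0.02 without untreated replicate 3. Only 1 of the 138 genes, Ehmt1, had all 3 of its 1 h arrays above all 3 of its 2 h arrays (4.61% of all genes), and 0 had all untreated arrays above all 2 h arrays (4.65% of all genes).

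**Figure D2:**
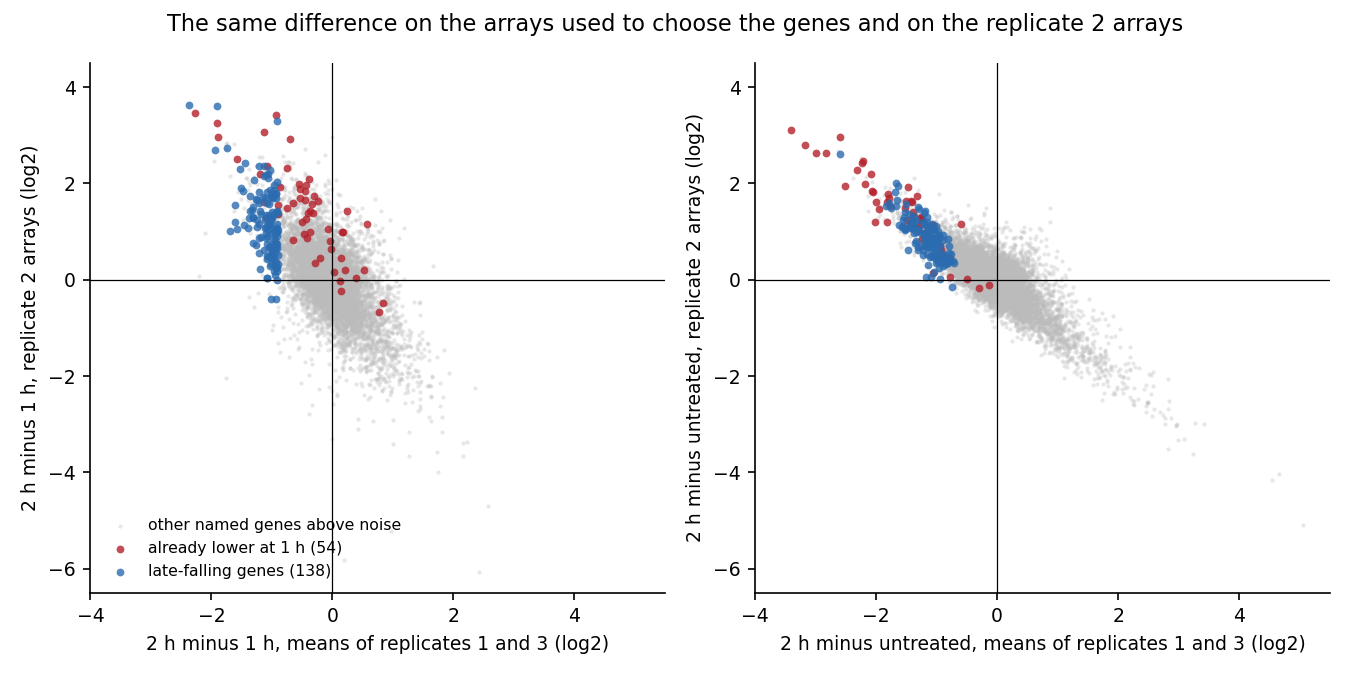
Difference in level (log2) on the replicate 2 arrays against the same difference in the means of replicates 1 and 3, for 2 h minus 1 h (left) and 2 h minus untreated (right); grey dots are other named genes above noise, blue dots the 138 late-falling genes and red dots the 54 genes already lower at 1 h. The blue dots lie left of -0.9 in the left panel by the rule, and 135 of them lie above 0 on the vertical axis.

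The 10 genes with the largest difference between 1 h and 2 h came from several cellular roles. Arhgef18, an exchange factor that activates small GTPases (chr8:3353338-3456601 in RefSeq's GRCm38 annotation), had intensities of 727, 90.6 and 675 without treatment, 519.7, 18.9 and 671 after 1 h and 75.7, 806 and 72.6 after 2 h. Intensities are given in the order of replicates 1, 2 and 3 throughout. The 2 h minus 1 h difference of Arhgef18 was -2.37 on replicates 1 and 3 and 3.63 on replicate 2, and over all 9 arrays it was -0.37 ± 1.14 (limma standard error, n = 3 arrays a group). H1f2, a linker histone gene, had 1313, 313 and 1304 without treatment, 1818, 176 and 1371 after 1 h and 347, 1404 and 409.6 after 2 h. Its 2 h replicate 2 value lies among the untreated and 1 h values of replicates 1 and 3, and its 1 h replicate 2 value is the lowest of the 9.

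Snx29, of the sorting nexin family, had 401, 183 and 397 without treatment, 319.8, 23.6 and 738 after 1 h and 108, 843 and 81.0 after 2 h, so its 1 h replicates 1 and 3 differed from each other by more than 2-fold. Akap12, a scaffold that tethers protein kinase A, had 449, 119 and 462 without treatment, 466, 38.9 and 472 after 1 h and 103, 545 and 109 after 2 h. Cep170, a centrosome protein that binds microtubules, had 486, 112 and 400.2 without treatment, 424, 182 and 367 after 1 h and 87.9, 418 and 86.0 after 2 h. For Akap12 the lowest array was 1 h replicate 2, whereas for Cep170 that array lay between the high and the low values.

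Rubcn, which encodes the autophagy inhibitor Rubicon, had 216, 51.0 and 224 without treatment, 178, 73.7 and 211 after 1 h and 35.9, 233 and 24.3 after 2 h. Nrros, which restrains reactive oxygen species in phagocytes, had 1078, 445 and 1023 without treatment, 1148, 312 and 1037 after 1 h and 368, 1018 and 287 after 2 h. Both showed 2 h replicate 2 at the level of untreated replicates 1 and 3. Mapk14, the p38 alpha stress kinase, had 314, 77.1 and 279 without treatment, 271, 143 and 276 after 1 h and 53.5, 351 and 65.0 after 2 h. Ppp3cc, a catalytic subunit of the calcium-dependent phosphatase calcineurin, had 827, 249 and 793 without treatment, 859, 130.1 and 797 after 1 h and 249.7, 836 and 257 after 2 h. Zer1, a substrate receptor of a cullin ubiquitin ligase, had 1653, 501 and 1526 without treatment, 1178, 391 and 1423 after 1 h and 457, 1602 and 390.0 after 2 h. In each of these 10 genes the groups overlapped once replicate 2 was counted, because 2 h replicate 2 was above at least one 1 h array.

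**Figure D3:**
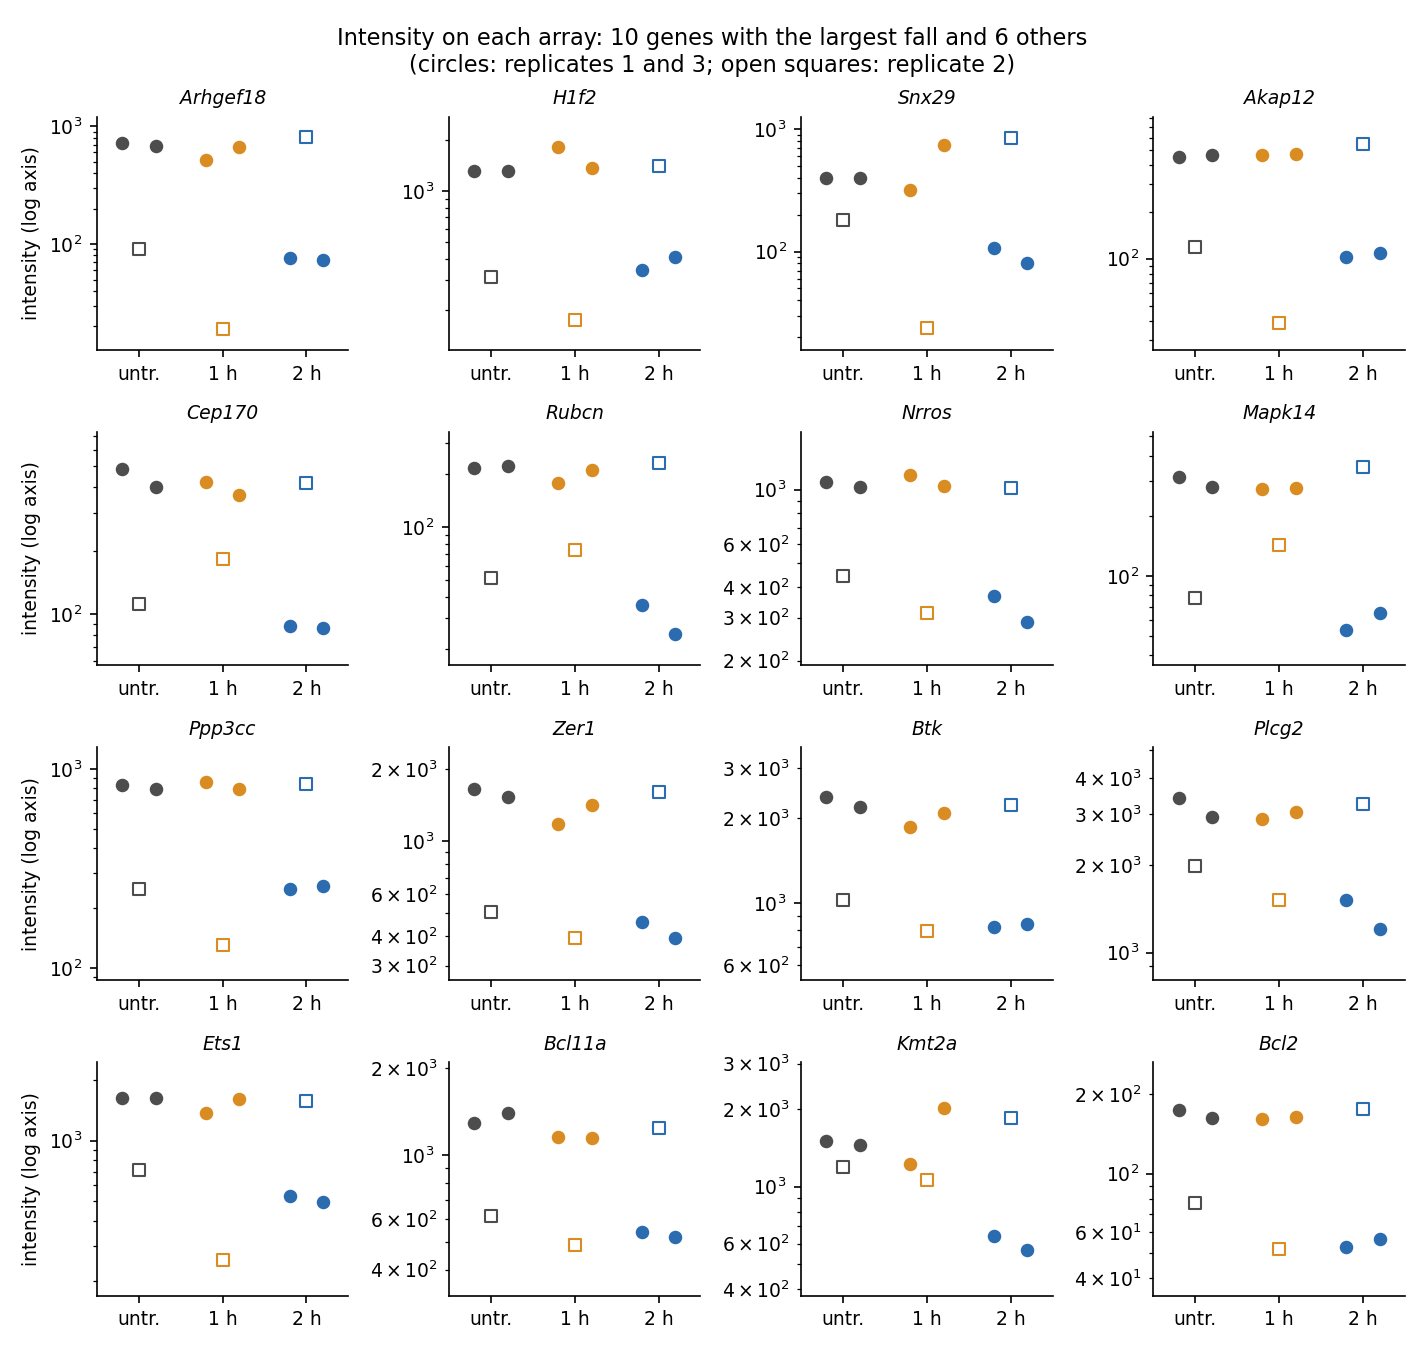
Deposited intensity (log axis) on each array for the 10 late-falling genes with the largest difference and 6 others named in the text; circles are replicates 1 and 3 and open squares replicate 2. In every panel the 2 h square lies above both 2 h circles, as for Arhgef18 at 806 against 75.7 and 72.6.

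Components of antigen receptor signalling were among the 138 genes. Of 46 measured antigen receptor kinases, adaptors and lipid enzymes, 5 were late-falling (Vav2, Btk, Dgka, Plcg2 and Themis2) and 7 in all had a 2 h minus 1 h difference at or below -0.9 on replicates 1 and 3, beside 138 and 270 of the 11087 genes. The median of this list was -0.31 there and 0.62 on the replicate 2 arrays, beside -0.02 and 0.01 over all genes. Plcg2, the phospholipase C of the receptor, had 3404, 1990.0 and 2939 without treatment, 2896, 1515 and 3045 after 1 h and 1518, 3245 and 1203 after 2 h. Btk, the kinase that activates it and whose loss causes immune deficiency, had 2373, 1021 and 2176 without treatment, 1858, 796 and 2086 after 1 h and 822, 2214 and 844 after 2 h. In both genes the untreated and 1 h arrays of replicate 2 lay nearer to the low 2 h values than to the high values of replicates 1 and 3. Vav2, an exchange factor for Rac, had 1931, 866 and 1501 without treatment, 1391, 939 and 1788 after 1 h and 575, 2116 and 516 after 2 h. Dgka, which removes diacylglycerol by phosphorylation, had 360.0, 167 and 429.8 without treatment, 363, 83.8 and 479 after 1 h and 174, 386 and 157 after 2 h. Over all 9 arrays the difference of 2 h minus 1 h was -0.32 ± 0.51 for Btk and -0.38 ± 0.41 for Plcg2 (limma standard errors), within the spread between arrays.

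Like all 138 genes, Plcg2, Bcl11a, Btk and H1f2 were low on 2 h replicates 1 and 3, by the rule, and higher on 2 h replicate 2. Their promoters are shown as 4 examples whose start regions differ in base composition. Each runs 5′ to 3′ from 250 bases before to 50 bases after a RefSeq start on GRCm38.p6. They lie at chr8:117498025-117498324 (plus strand) for Plcg2, chr11:24080445-24080744 (plus) for Bcl11a, chrX:134583091-134583390 (minus) for Btk and chr13:23738557-23738856 (plus) for H1f2. The Bcl11a and Btk windows use starts inside the genes' spans (chr11:24076564-24173558 and chrX:134542334-134583628). Those of Plcg2 and H1f2 are at the 5′ end of the span. Capitals mark GGGCGG on either strand, the core of a GC box.
Plcg2: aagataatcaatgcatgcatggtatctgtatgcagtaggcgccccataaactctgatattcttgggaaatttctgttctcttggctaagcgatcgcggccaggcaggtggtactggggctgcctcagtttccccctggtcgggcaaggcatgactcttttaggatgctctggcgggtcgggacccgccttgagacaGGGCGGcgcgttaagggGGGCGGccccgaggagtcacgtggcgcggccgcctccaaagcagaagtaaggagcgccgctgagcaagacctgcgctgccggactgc
Bcl11a: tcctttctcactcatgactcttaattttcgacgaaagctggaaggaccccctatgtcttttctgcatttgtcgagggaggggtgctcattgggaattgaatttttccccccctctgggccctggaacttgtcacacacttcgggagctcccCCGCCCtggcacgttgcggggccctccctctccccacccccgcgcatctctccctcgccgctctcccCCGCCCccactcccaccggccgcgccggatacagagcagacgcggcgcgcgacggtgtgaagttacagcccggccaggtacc
Btk: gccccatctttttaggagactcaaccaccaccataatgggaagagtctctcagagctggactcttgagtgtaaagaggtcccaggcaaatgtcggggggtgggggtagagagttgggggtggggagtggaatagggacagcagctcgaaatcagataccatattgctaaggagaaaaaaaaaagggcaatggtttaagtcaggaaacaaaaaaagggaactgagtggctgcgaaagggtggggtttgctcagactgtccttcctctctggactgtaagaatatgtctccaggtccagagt
H1f2: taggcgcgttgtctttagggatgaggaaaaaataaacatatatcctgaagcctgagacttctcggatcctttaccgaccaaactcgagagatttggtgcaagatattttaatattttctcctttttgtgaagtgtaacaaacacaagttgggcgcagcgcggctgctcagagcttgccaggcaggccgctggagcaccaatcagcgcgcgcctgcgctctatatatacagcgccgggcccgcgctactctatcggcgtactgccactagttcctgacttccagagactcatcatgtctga
The windows of Plcg2 and Bcl11a hold 2 such matches each and those of Btk and H1f2 hold 0. The share of G and C is 60% for Plcg2, 63% for Bcl11a, 49.3% for Btk and 50.3% for H1f2, and the number of CpG steps is 21, 23, 3 and 19. RefSeq windows were at hand for 117 of the 138 genes (170 windows), with a median GC content of 60.7% and 20 CpG steps, beside 60% and 19 for the windows of named genes above noise. GGGCGG was present in 61.2% of the windows of late-falling genes and 58.7% of those of all named genes above noise, beside 35.7% of all promoters in the table. CCAAT was present in 31.2% against 37.9%, TATAAA in 5.29% against 8.55% and CACGTG in 11.2% against 9.74%, each searched on both strands. These shares are descriptions and were not tested.

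Inhibitory receptors were also among the 138 genes. Of 27 measured inhibitory coreceptors and phosphatases, 2 were late-falling (7.41%, beside 1.24% of all named genes above noise). In all, 4 were at or below -0.9, as were 2.44% of all genes. Pecam1, an adhesion molecule with inhibitory motifs, had 147, 45.3 and 157 without treatment, 122, 23.2 and 139 after 1 h and 11.6, 147 and 29.2 after 2 h. Fcgr2b, the inhibitory receptor for IgG on B cells, had 672, 255 and 760.4 without treatment, 620.3, 196 and 543 after 1 h and 291, 746 and 269 after 2 h. In both the lowest arrays were 2 h replicates 1 and 3 together with untreated and 1 h replicate 2. Cd274, the ligand of the PD-1 checkpoint receptor, differed by -1.29 on replicates 1 and 3 and by 2.07 on replicate 2. Among other kinases, Tyk2, which serves cytokine receptors, had 389, 189.6 and 308 without treatment, 308, 166 and 409 after 1 h and 122, 408 and 120.2 after 2 h. Stk4, a kinase of the Hippo pathway, had 879.9, 498 and 869 without treatment, 804, 401 and 800.0 after 1 h and 417, 954 and 384 after 2 h. Each was the only late-falling gene of its list, of 28 measured interleukin receptor, JAK and STAT genes and of 39 measured TGF-beta, Notch, Wnt and Hippo genes. Mapk14 was the only one among 38 MAPK, RGS and SOCS regulators. The shares of these lists were 3.57%, 2.56% and 2.63%, beside 1.24% of all genes, and each rests on 1 gene.

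Transcription factors and chromatin proteins made up the largest role group, with 25 genes. Of 35 measured B lineage transcription factors 3 were late-falling (Ets1, Bcl11a and Pou2f2), or 8.57%, beside 1.24% of all named genes above noise. In all, 6 were at or below -0.9, as were 2.44% of all genes. Ets1, which holds back plasma cell formation, had 1638, 712 and 1629.8 without treatment, 1372, 254 and 1614 after 1 h and 532, 1572 and 495 after 2 h. Bcl11a, which early lymphoid development requires, had 1294, 616 and 1401 without treatment, 1159.9, 487 and 1142 after 1 h and 541, 1246 and 520.1 after 2 h. Pou2f2, which encodes Oct-2, had 98.8, 31.4 and 93.1 without treatment, 93.5, 32.9 and 99.2 after 1 h and 28.6, 99.7 and 19.5 after 2 h. The difference of 2 h minus 1 h for Ets1 was -1.45 on replicates 1 and 3, 2.42 on replicate 2, and -0.16 ± 0.71 (limma standard error) over all 9 arrays. The 1 h replicate 2 array was the lowest of the 9 for Ets1 and Bcl11a but not for Pou2f2.

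Chromatin regulators supplied 9 late-falling genes of 138 measured, beside 138 of 11087 (1.24%) overall. Kmt2a, a histone methyltransferase also known as MLL, had 1499, 1190.0 and 1445 without treatment, 1227, 1061 and 2023 after 1 h and 642, 1849 and 566 after 2 h. Hdac7, a class IIa histone deacetylase, had 157, 68.8 and 152 without treatment, 149, 55.3 and 158 after 1 h and 48.2, 155 and 42.6 after 2 h. Kmt5c, a histone methyltransferase of heterochromatin, had 283, 126 and 229.6 without treatment, 169.9, 127 and 260.1 after 1 h and 74.2, 235 and 80.1 after 2 h. Kmt2a differed from most of the 138 genes in that its untreated and 1 h replicate 2 values lay well above its low 2 h values. Ehmt1, a histone methyltransferase of silent chromatin, had 138, 106 and 139 without treatment, 136, 163 and 123 after 1 h and 29.7, 111 and 48.3 after 2 h. Its highest array was 1 h replicate 2, and its replicate 2 difference of -0.40 was among the lowest of the 138. The other 5 were Chd9, Prdm2, Kmt2e, Phf14 and Smarca2, with differences from -1.01 to -0.92 on replicates 1 and 3 and from 0.45 to 1.36 on replicate 2. Zinc finger genes gave 2 of 224 (0.893%). Zfp608 had 1355, 629 and 1053 without treatment, 949, 283 and 1087 after 1 h and 448, 994 and 352 after 2 h. Zfp318, needed for IgD on mature B cells, had 1244, 707 and 1037 without treatment, 842, 459 and 1130.4 after 1 h and 522, 1609.7 and 425 after 2 h, with its highest value on 2 h replicate 2.

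Regulators of small GTPases and of the cell skeleton made up another role group, of 19 genes. Of 175 measured GTPase regulators 7 were late-falling (Arhgef18, Arhgap45, Rapgef5, Dock10, Sipa1l1, Rasal3 and Arhgef11). That is 4%, beside 1.24% of all named genes above noise. In all, 15 of the 175 were at or below -0.9, as were 2.44% of all genes. Arhgap45, which switches small GTPases off, had 701, 271 and 849 without treatment, 600.2, 149 and 799 after 1 h and 229, 662 and 204 after 2 h. Rapgef5, an exchange factor for Rap, had 191, 89.7 and 168 without treatment, 171, 35.8 and 213 after 1 h and 71.6, 252 and 57.4 after 2 h. Dock10, an exchange factor for Cdc42 and Rac, had 2451, 2195 and 2773 without treatment, 2665, 1255 and 3273 after 1 h and 1495, 2818 and 1300.1 after 2 h. In these 3 genes 1 h replicate 2 was the lowest array. Over the role group, which also holds Was and Wipf1 of the actin nucleation pathway, the replicate 2 difference of 2 h minus 1 h had a median of 1.39, and 1 h replicate 2 was below untreated replicate 2 for 17. That order held for 91 of the 138 genes (65.9%) and for 48.9% of all named genes above noise.

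Genes of innate defence stood low on 1 h replicate 2, and so did some other role groups. The role group of 8 genes had a median replicate 2 difference of 1.80 for 2 h minus 1 h, and all 8 were lower at 1 h than untreated on replicate 2, beside 65.9% of the 138 genes and 48.9% of all genes. Its replicate 2 median of 1 h minus untreated was -0.65. That median was -0.69 for the GTPase and cell skeleton group and -0.61 for the genes of no assigned role. Pld4, an endolysosomal nuclease that degrades single-stranded nucleic acid, had 779, 354 and 883 without treatment, 677, 43.7 and 703 after 1 h and 341, 873 and 348 after 2 h. Ddx58, which encodes the RNA sensor RIG-I, had 187, 89.2 and 187 without treatment, 175, 18.4 and 183 after 1 h and 85.9, 229.8 and 57.7 after 2 h. Irf2, counted with the transcription factors and known to restrain interferon responses, had 2592, 832 and 2346 without treatment, 1977, 722 and 2015 after 1 h and 723, 2509 and 762 after 2 h. Pld4 and Ddx58 were lowest on 1 h replicate 2 by a wide margin, whereas Irf2 was there level with its low 2 h values. Irf2 and Ddx58 were the 2 late-falling genes of 34 measured in the interferon and Toll-like receptor list (5.88%, beside 1.24% of all named genes above noise). Over that whole list the median replicate 2 difference of 2 h minus 1 h was 0.41, beside 0.01 over all genes. The other members of the role group were Nrros, Parp14, Gvin1, Samhd1, Gbp3 and Tap1, and the probes of Gvin1 and Gbp3 may not separate near-identical family members.

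Survival and DNA repair genes were also among the 138 genes. Of 31 measured BCL2 family and death genes 3 were late-falling (9.68%, beside 1.24% of all named genes above noise). Birc2, which encodes the ubiquitin ligase cIAP1, had 633, 286 and 522 without treatment, 538, 303 and 530.0 after 1 h and 251, 617 and 204 after 2 h. Bcl2, which blocks apoptosis, had 174, 77.4 and 162 without treatment, 161, 51.6 and 164 after 1 h and 52.6, 176 and 56.5 after 2 h. Apaf1, the scaffold of the apoptosome, had 263, 168 and 269.9 without treatment, 295, 122 and 290.5 after 1 h and 114, 228 and 146 after 2 h. In all 3 genes, 2 h replicates 1 and 3 and untreated and 1 h replicate 2 were the 4 lowest arrays. Of 35 DNA repair and replication genes 2 were late-falling (5.71%). Xrcc1, a scaffold of single-strand break repair, had 885, 375 and 803 without treatment, 754, 125 and 701 after 1 h and 286, 846 and 286 after 2 h. Atm, the kinase that senses double-strand breaks, had 567, 303 and 557 without treatment, 553, 427 and 520.2 after 1 h and 257, 527 and 219.6 after 2 h. On 1 h replicate 2 they parted: Xrcc1 was at its lowest there, and Atm was above its untreated replicate 2 value.

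Endosome, lysosome and vesicle genes numbered 19, with a median replicate 2 difference of 0.88 for 2 h minus 1 h. Npc1, which exports cholesterol from lysosomes, was the only one among 39 measured genes of the lysosome, autophagy and endosome list (2.56%, beside 1.24% of all named genes above noise). It had 675, 302 and 665 without treatment, 583, 414 and 572 after 1 h and 232, 613 and 294 after 2 h. Its 1 h replicate 2 value lay between its low and high arrays. The genes of this role that differed most after Snx29 and Rubcn were Stx7, a syntaxin of late endosomes, and Abca3, a lipid transporter, at -1.25 and -1.17 on replicates 1 and 3. Among Golgi enzymes, St6gal1, the sialyltransferase that makes the ligand of CD22, was named after its values were seen, as the brightest of the 138 probes, with 8211, 4648 and 6371 without treatment, 6203, 3891 and 7396 after 1 h and 3274, 7115 and 2568 after 2 h. Role groups varied in how many of their genes were lower at 1 h than untreated on replicate 2: 1 of 6 centrosome and cilium genes (Cep120), 1 of 5 ubiquitin ligases, 2 of 5 RNA-binding proteins, 2 of 5 DNA repair genes, 4 of 10 metabolism and transport genes and 11 of 19 endosome and vesicle genes. Role groups were assigned by hand after the values had been seen, so these contrasts are descriptions without a test.

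**Figure D4:**
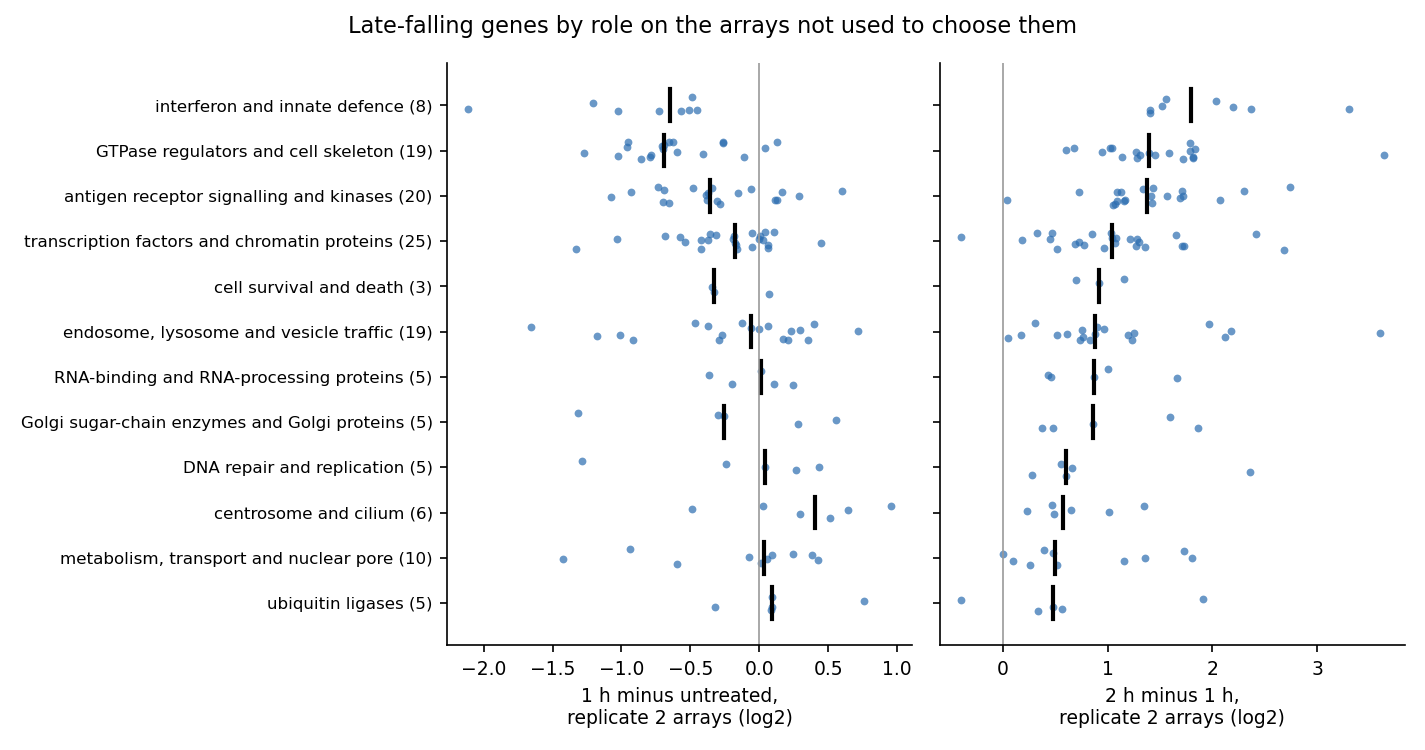
Differences on the replicate 2 arrays (log2), 1 h minus untreated (left) and 2 h minus 1 h (right), for the late-falling genes by role; dots are genes, bars medians and the numbers in brackets genes per role, with 8 genes of no assigned role left out. In the right panel the medians run from 0.47 for ubiquitin ligases to 1.80 for interferon and innate defence genes.

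A few genes did not follow the replicate 2 pattern. The 3 smallest replicate 2 differences of 2 h minus 1 h were those of Ehmt1, Mib2 and Pnpla6, the 3 genes not above 0. Mib2, a ubiquitin ligase, had 270.1, 192 and 266 without treatment, 223, 360.2 and 319.7 after 1 h and 128, 262 and 106 after 2 h. Pnpla6, a lysophospholipase, had 91.1, 54.0 and 76.9 without treatment, 65.5, 73.0 and 94.0 after 1 h and 18.8, 72.8 and 18.0 after 2 h. The largest were those of Arhgef18, Snx29 and Pld4, at 3.63, 3.60 and 3.30. Hjurp, a chaperone of the centromere histone and the gene just inside the threshold, had 671, 471 and 568 without treatment, 627, 493 and 703 after 1 h and 362, 633 and 304 after 2 h. Gtpbp2, a GTP-binding protein that helps rescue stalled ribosomes, had 1105, 793 and 1062 without treatment, 822, 799 and 1138 after 1 h and 582, 1161 and 421 after 2 h. Just outside, Tk1, the thymidine salvage kinase, had 298, 108 and 230.4 without treatment, 297, 79.7 and 175 after 1 h and 95.1, 281 and 105 after 2 h. Smchd1, a chromatin protein of the inactive X chromosome, had 364, 312 and 366 without treatment, 423, 240.4 and 438 after 1 h and 227, 414 and 190.1 after 2 h. All 4 genes, inside and outside the threshold, had 2 h replicate 2 above the other 2 h arrays.

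At an overall share of 138 of 11087 named genes above noise (1.24%), a short list may well hold 0. Some lists held no late-falling gene. These were 31 resting state and FOXO target genes, 25 homing and G protein-coupled receptors, 45 genes of a ubiquitin ligase and deubiquitinase list, 34 G1 cyclins, CDK inhibitors and p53 targets, 15 clock genes, 22 immediate-early genes and 33 mRNA decay genes, together with every cell type marker list. The immediate-early genes had a median 1 h minus untreated difference of 2.58 on replicates 1 and 3. The flat window of the rule thus shut many of them out in advance. The ubiquitin list does not hold the 5 late-falling genes grouped by role as ubiquitin ligases (Zer1, Fbxl20, Ube4b, Rnf185 and Mib2). Several of the lists without a late-falling gene nevertheless had genes at or below -0.9 between 1 h and 2 h on replicates 1 and 3 (2.44% of all genes). There were 4 in the resting state list, 4 in the ubiquitin list, 3 immediate-early genes and 3 in the G1 cyclin list. The homing, clock, mRNA decay and B cell marker lists had 1 each. None of these genes was flat at 1 h.

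The late-falling genes were compared with 54 genes that were already lower by 0.9 or more at 1 h on replicates 1 and 3, with which they share 0 genes. On replicate 2 the early set had a median of 1.40 for 2 h minus 1 h and -0.02 for 1 h minus untreated, against 1.09 and -0.28 for the late-falling genes, so both sets were high on 2 h replicate 2. Measures that the rule did not use include the length of the gene. The median genomic span in RefSeq's GRCm38.p6 annotation was 66.1 kb for the late-falling genes (quartiles 29.1 and 113 kb), 11.6 kb for the early set (4.10 and 23.8 kb) and 21.3 kb for 11066 named genes above noise (8.54 and 50.1 kb). Late-falling genes made up 0.287% of genes under 10 kb, 0.772% of those of 10 to 30 kb, 1.88% of those of 30 to 100 kb and 3.45% of those of 100 kb or more. For the early set these shares were 0.828%, 0.469%, 0.297% and 0.157%. The order of the 3 medians was the same within genes of like signal: in the middle of 3 equal classes of mean level the span was 80.6 kb for 48 late-falling genes, 7.95 kb for 25 early genes and 24.4 kb for all, and in the highest class 63.9 kb for 90, 12.6 kb for 29 and 18.9 kb. The lowest class held 0 genes of either set, where the offset of 50 leaves little room for a difference of 0.9. The span of single genes ran from 0.725 kb for H1f2 to 436 kb for Snx29. Length was chosen for this comparison with earlier results known, and the difference was not tested.

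**Figure D5:**
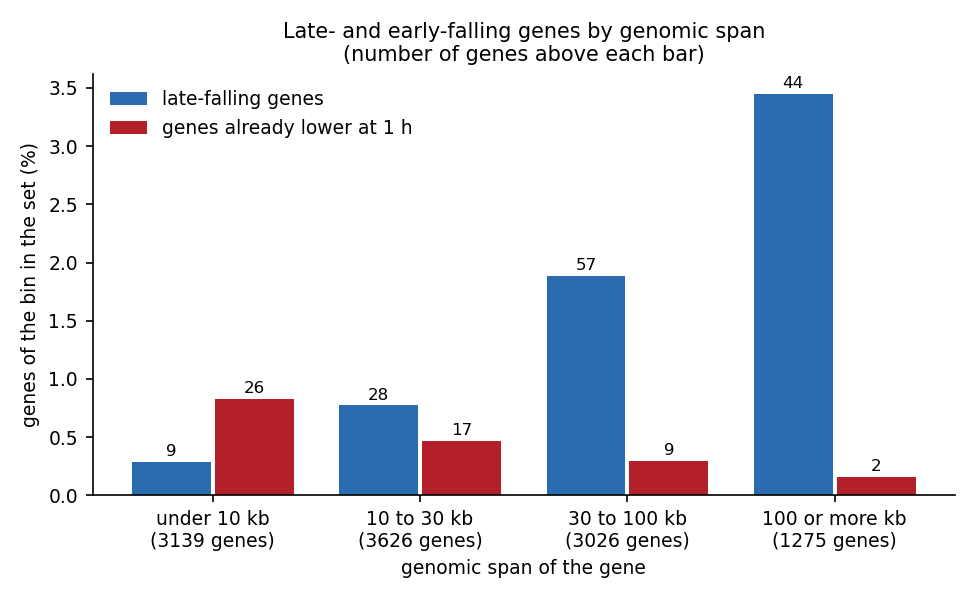
Share of the named genes above noise in each bin of genomic span (kb) that belong to the 138 late-falling genes (blue) or to the 54 genes already lower at 1 h (red), with the number of genes above each bar. The blue share runs from 0.287% under 10 kb to 3.45% at 100 kb or more, and the red share from 0.828% to 0.157%.

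Other probes of the same genes had a median difference nearer to 0. The 138 genes had 205 further probes, 128 of them above noise in 77 genes, and 38 genes had 1 probe. On replicates 1 and 3 the difference of 2 h minus 1 h was below 0 for 110 of the 128 probes, with a median of -0.39, at or below -0.9 for 10, and above 0 for 18. On replicate 2 it was above 0 for 114 of the 128, with a median of 0.48. A second probe of H1f2 gave -1.89, of Add3 -1.22, of Zmynd8 -1.12 and of Rbm5 -1.03. That Zmynd8 probe was at 0.36 for 1 h minus untreated, outside the flat window. Yet another probe of Add3 gave 0.11 and another of Rbm5 gave -0.08. Among genes whose 9 values are given, the probes disagreed in sign for Bcl2, Dock10, Zer1, Npc1, Atm and Cep170, with a further probe at 0.43, 0.22, 0.18, 0.03, 0.01 and 0.01 on replicates 1 and 3. Among the other genes the highest were Sptbn1 (0.22) and Smarca2 (0.18). A further probe of Bcl11a, with a mean level of 9.01 (log2), differed by -0.18 for 2 h minus 1 h and by -0.68 for 1 h minus untreated, so it was not flat at 1 h.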

How the data were processed

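RNA from 9 samples of mouse splenic B cells had been amplified to biotinylated cRNA for Illumina bead arrays, per the labels' protocols. The values used are linear intensities deposited by the authors for 45281 probes on each array. The software and normalization behind them are not given in the sources used here. Of these values 31.8% were below 0 and the upper quartiles of the arrays differed by 0.347%, as in background-subtracted and normalized data. A further deposited table has 9 value columns whose names match no sample label, and these were not used.

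Levels are log2 of intensity plus 50. A probe was above noise on an array when it exceeded the upper 0.05 tail of the values below 0 mirrored around 0 (median threshold 6.44), and probes above noise on at least 3 of 9 arrays were tested. The probe with the highest mean stood for each gene. Names came from the platform's annotation, in which 34885 probes had 1 symbol, 18 several and 10378 none, and all 138 chosen genes matched RefSeq's GRCm38.p6 table. Spans and promoters are RefSeq's. Groups follow the labels, with 1 mean per group over all 9 arrays. limma 3.58.1 (R 4.3.3) gave the tests, two-sided and with Benjamini-Hochberg adjustment over 14640 features. Other steps used Python 3.11.15 with pandas 2.3.3. The number of arrays limits the precision, and identical values were found in 0 pairs of arrays.

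The 138 genes, the gene lists and the comparison set were chosen with earlier results of these data known, and role groups by hand after values were seen. Values on all 9 arrays were printed for the 10 genes with the largest difference, up to 4 genes per list, the 3 largest and 3 smallest replicate 2 differences, and the genes beside the threshold. St6gal1 was added after its values were seen. Any other gene is named for its role. Deviations from the group means of same-numbered arrays correlated at 0.57, 0.52 and 0.24 between untreated and 1 h (replicates 1, 2 and 3). In pairs with 2 h they correlated at -0.79 to -0.34. Replicate 2 stood apart in each group and deviations within a group sum to 0. These correlations therefore cannot tell whether same-numbered arrays are paired. The scripts were tested on simulated data. Alternatives covered the offset, quantile normalization, the choice of probe, noise filter, thresholds, arrays in the fit, array weights, a replicate block and leaving out arrays.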

Additional observations from a re-analysis of the deposited data

How the results depend on the processing

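The number of late-falling genes depended on the settings. It was 339 with an offset of 16 (129 shared with the 138) and 65 with an offset of 100 (62 shared). With the mean of all probes of a gene it was 55 (50 shared), with a required difference of 0.7 it was 323, with 1.1 it was 45, and with a flat window of 0.2 it was 91. Quantile normalization gave 137, and leaving out replicate 1 or replicate 3 gave 147 to 194 genes, of which 68 without replicate 3 and 108 without replicate 1 were shared. The median replicate 2 difference of 2 h minus 1 h stayed above 0 in all 11 alternatives tried. It was 0.84 with a required difference of 0.7 and 1.43 with 1.1, both added after seeing the data, and 0.99 to 1.08 with replicate 1 or 3 left out. The number at or below -0.9 on replicate 2 was 0, except 3 with an offset of 16. The median of 1 h minus untreated on replicate 2 stayed below 0, at -0.22 to -0.19 with replicate 1 or 3 left out.

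Across all features limma called 0 in each comparison under 16 of 18 alternatives, and leaving out any single array gave 0 to 0. With array weights it called 1 for 1 h against untreated, 4898 for 2 h against untreated and 25 for 2 h against 1 h, with the lowest weights on 1 h, 2 h and untreated replicate 2 (0.261, 0.308 and 0.343). With the 3 arrays labelled replicate 2 left out it called 1073, 5088 and 3765, a choice made from the same values. A fit with the replicate number as a block called 0 in each comparison and changed no call. That block gives same-numbered arrays of all groups a shared shift, although deviations of the 2 h arrays correlated negatively with the others (-0.79 to -0.34).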
